A study of Mus musculus with 6 samples.

Results

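The conjugating enzymes are described here in bulk RNA-seq of mouse colon. They comprise the UDP-glucuronosyltransferases of the Ugt1a and Ugt2 families (UGT), the sulfotransferases (SULT), the soluble and microsomal glutathione S-transferases (GST and MGST) and genes named as N-acetyltransferases (NAT). Members were taken by gene symbol from the protein-coding rows of the deposited table, with no use of measured values. This gave 65 of the 36977 genes listed, with 15 UGT, 12 SULT, 25 GST and MGST and 13 NAT genes. It includes Nat10, Nat14 and Nat8l, whose symbols match although they are not known as conjugating enzymes. The Nat8-like genes, Nat8f4 among them, were also taken by symbol alone, and their activity was not tested. Of the 65, 43 averaged 0.5 FPKM or more across the 6 libraries and were tested among 14611 genes. FPKM counts fragments relative to transcript length and library total, so levels may be compared between genes.

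The DSS+DCA group holds 3 libraries labelled as treated with dextran sodium sulfate (DSS) and deoxycholic acid (DCA). The DSS group holds 3 libraries labelled with DSS alone. Both are wild type by label, and the libraries of each group are numbered 1, 2 and 4. Values of single libraries are given in that order. DSS is a polysaccharide that injures the colonic epithelium, and DCA is a secondary bile acid made by gut bacteria. The protocol text is the same in every sample and names a 7-day course of 2% DSS followed by a DCA enema. The sources used here give neither an enema for the DSS group nor the strain, sex and age of the mice. Nothing ties each library to a mouse of its own, and the p-values therefore measure library spread that may be technical.

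The libraries were uneven. Mitochondrial transcripts held 30.5%, 47.6% and 46.7% of the summed FPKM in DSS+DCA, against 29.4% to 31.4% in DSS. DSS replicate 4 was close to an even mean of the other DSS libraries. Across 1129 protein-coding genes with 30 FPKM or more, it deviated from a weighted mean of that pair by a median of 0.0473 on the log2 scale, and the pair differed by a median of 0.201. The labels do not say whether this library is independent of the other pair or a pool of them, and this was not tested. If it is not independent, n = 3 counts too many DSS samples, and the DSS SDs and the p-values are too small. Colonic tissue is the labelled source and intestinal epithelial cells the labelled cell type. All 17 epithelial markers were above 0 in all 6 libraries, and so were all 10 smooth muscle markers, which summed to 1529.7, 95.7 and 1078 FPKM in DSS+DCA and to 43.8 to 684.5 FPKM in DSS. In bulk tissue, fewer cells of a type and less RNA per cell cannot be told apart.

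Conjugation makes lipophilic molecules soluble for export. UGTs sit in the endoplasmic reticulum and transfer glucuronic acid from UDP-glucuronic acid to bilirubin, bile acids, steroids and drugs, while cytosolic SULTs transfer sulfate from the donor PAPS to phenols and steroids. GSTs couple glutathione to electrophiles, and the resulting cysteine conjugates can be acetylated into mercapturic acids, a step that NAT8 carries out in humans. Arylamine NATs transfer acetyl groups from acetyl-CoA to aromatic amines. In the colon these enzymes work mainly in surface epithelial cells, which meet bacterial products, dietary compounds and bile acids.

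Nat8f4 (ENSMUSG00000068299), of the N-acetyltransferase family of Nat8, was the 1 member of the set past the test and was lower in DSS+DCA. It measured 0.787, 0.588 and 0.562 FPKM in DSS+DCA, against 8.22, 7.18 and 6.92 FPKM in DSS. The groups lay far apart, and each DSS+DCA library was under every DSS library. The mean was 0.646 ± 0.123 FPKM in DSS+DCA and 7.44 ± 0.685 FPKM in DSS (SD, n = 3 each), 11.5-fold lower. On the log2(FPKM + 1) scale the change was -2.36 ± 0.16 (SE), with an adjusted p = 0.0102 in limma. Nat8f4 had the smallest p of all 14611 tested genes, rank 1. Its log2 change lay between -3.35 and -1.66 on 5 other scales (a pseudocount of 0.1, TMM-style scaling, quantile normalization, rescaling to an equal protein-coding sum without mitochondrial genes, and a shift that sets the epithelial marker mean equal in all libraries), and it was called on each. Leaving out DSS replicate 1 or DSS replicate 4 ended the call (adjusted p = 0.0684 and 0.1045, limma).

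It was 1 of 43 tested conjugating enzymes past the test, where 0.431% of all tested genes were called lower, 0.13% higher and 0.561% in either direction. The other 42 did not pass over all genes tested. At an unadjusted p under 0.05, 13 of 43 were lower and 0 higher, where 12.4% of all genes were lower and 4.26% higher. Fitted values were below 0 for 36 of 43, against 60.5% of all tested genes.

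**Figure D1:**
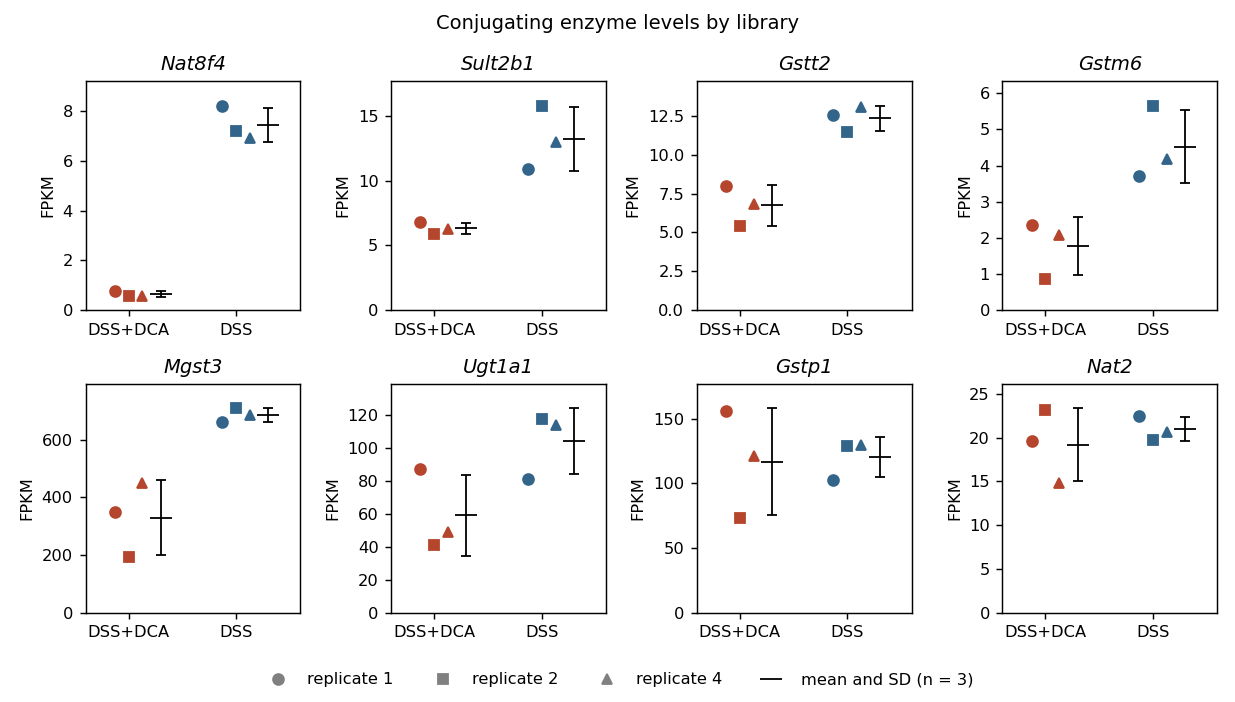
FPKM of 8 conjugating enzymes by library (vertical axes start at 0). DSS+DCA stands left of DSS, marker shapes give the replicate number, and bars give the mean and SD over 3 libraries. Nat8f4 lies under 1 FPKM in the DSS+DCA libraries and near 7 to 8 FPKM in DSS (lowest 6.92, highest 8.22), while Gstp1 and Nat2 overlap.

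Nat8f4 lies on chromosome 6 from 85899051 to 85904884 on the minus strand (GRCm38, GENCODE M21, matched by gene identifier, since the sources used here name no build). It stands in a cluster of 8 Nat8-like genes from 85706727 to 85915687. Nat8f1, a neighbour on the same strand, is separated from Nat8f4 by 5269 bases. It measured 2.52, 1.35 and 1.26 FPKM in DSS+DCA, against 1.93, 1.76 and 1.10 FPKM in DSS (log2 change 0.05 ± 0.24 SE, adjusted p = 0.935, limma). These groups overlap. On the other side stands Nat8f2, which stayed at 0 to 0.155 FPKM in all libraries. Of the 100-base windows of the longest Nat8f4 transcript, 7.4% also occur in Nat8f2 and in no other gene. The other 5 Nat8-like genes, Nat8, Nat8f3, Nat8f5, Nat8f6 and Nat8f7, were at most 0.188 FPKM in any library.

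The promoters of Nat8f4 (both starts) and of its neighbour Nat8f1 are shown because Nat8f4 passed the test and the adjacent Nat8f1 did not, and those of Ugt1a1 and Mgst3 as the main glucuronidation gene and the most abundant member. Each runs 5′ to 3′ on the gene's strand from 250 bases before to 50 after a RefSeq start (GRCm38.p6), with motif matches in capitals.
Nat8f4, outer start, chr6:85904889-85905188, minus strand: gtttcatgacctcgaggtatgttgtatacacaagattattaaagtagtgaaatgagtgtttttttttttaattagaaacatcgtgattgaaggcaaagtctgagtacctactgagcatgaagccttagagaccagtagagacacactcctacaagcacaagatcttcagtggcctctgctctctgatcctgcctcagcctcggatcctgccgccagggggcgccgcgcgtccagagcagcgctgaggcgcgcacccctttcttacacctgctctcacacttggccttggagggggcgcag
Nat8f4, inner start, chr6:85902484-85902783, minus strand: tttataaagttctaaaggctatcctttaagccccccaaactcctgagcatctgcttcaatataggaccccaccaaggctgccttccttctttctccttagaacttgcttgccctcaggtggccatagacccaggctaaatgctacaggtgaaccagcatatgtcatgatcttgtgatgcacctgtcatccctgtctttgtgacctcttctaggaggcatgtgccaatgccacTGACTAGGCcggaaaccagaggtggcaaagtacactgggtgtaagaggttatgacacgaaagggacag
Nat8f1, chr6:85915583-85915882, minus strand: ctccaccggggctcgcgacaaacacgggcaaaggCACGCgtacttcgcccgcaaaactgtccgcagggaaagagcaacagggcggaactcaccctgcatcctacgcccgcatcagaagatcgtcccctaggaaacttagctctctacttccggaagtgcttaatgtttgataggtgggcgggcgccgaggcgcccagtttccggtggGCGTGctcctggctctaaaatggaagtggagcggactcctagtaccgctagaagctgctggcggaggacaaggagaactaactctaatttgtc
Ugt1a1, chr1:88211709-88212008, plus strand: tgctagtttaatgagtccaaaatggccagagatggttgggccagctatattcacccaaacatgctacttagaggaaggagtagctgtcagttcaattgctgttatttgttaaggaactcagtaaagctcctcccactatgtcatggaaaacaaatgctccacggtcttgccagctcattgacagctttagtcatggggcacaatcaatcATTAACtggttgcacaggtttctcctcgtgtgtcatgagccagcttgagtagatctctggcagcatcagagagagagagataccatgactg
Mgst3, chr1:167393792-167394091, minus strand: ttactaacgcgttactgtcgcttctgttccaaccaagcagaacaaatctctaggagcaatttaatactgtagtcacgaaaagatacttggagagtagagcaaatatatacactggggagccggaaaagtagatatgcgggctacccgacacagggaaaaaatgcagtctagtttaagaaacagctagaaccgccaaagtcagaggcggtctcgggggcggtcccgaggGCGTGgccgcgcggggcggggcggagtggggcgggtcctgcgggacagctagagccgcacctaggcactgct
Both strands were searched for TGACNNNGC (antioxidant response element, bound by NRF2), GCGTG (the core bound by the aryl hydrocarbon receptor), GTTAAT (HNF1) and CAAAGTCCA (HNF4). Matches did not overlap in these windows. The inner Nat8f4 start held 1 TGACNNNGC match and its outer start none of the 4 motifs, Nat8f1 held 2 GCGTG matches, Ugt1a1 1 GTTAAT match and Mgst3 1 GCGTG match. Promoters were found for 58 of the 65 members, as 73 windows. TGACNNNGC occurred in 6.85% of these (5 windows) against 12.39% of all 32851 promoters, and GCGTG in 24.66% (18 windows) against 32.39%. GTTAAT occurred in 15.07% (11 windows) against 7.1%, and CAAAGTCCA in 2.74% (2 windows) against 0.47%. Windows with GTTAAT included those of the untested Sult2a4, Sult2a5 and Sult2a6, and those with CAAAGTCCA were of Sult1b1 and the untested Nat8. A match is a run of letters and not a shown binding site.

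The members spanned a wide range of levels. By the mean over 6 libraries, 4 were at 100 FPKM or more (Mgst3, Gsto1, Sult1a1 and Gstp1), 17 between 10 and 100, 18 between 1 and 10, and 4 between 0.5 and 1. Mgst3, Gsto1, Sult1a1, Gstp1 and Sult1d1 together held 51.9% to 59.2% of the members' summed FPKM in DSS+DCA libraries and 56.7% to 60.1% in DSS. The 22 untested members had means of at most 0.475 FPKM, and 10 of them stayed under 0.1 FPKM in every library. Among these 22 were the hydroxysteroid sulfotransferases Sult2a4, Sult2a5 and Sult2a6, the olfactory glucuronosyltransferase Ugt2a1, the first-exon variants Ugt1a5, Ugt1a6b and Ugt1a10, and Nat1.

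Of the glucuronosyltransferases, 8 of 15 were tested and 0 passed the limma test. At an unadjusted p under 0.05, 1 was lower, where 12.4% of all tested genes were lower. This 1 gene was Ugt1a1, the enzyme that conjugates bilirubin. It measured 86.9, 41.0 and 49.1 FPKM in DSS+DCA, against 81.1, 117 and 114 FPKM in DSS. DSS+DCA replicate 1 lay within the DSS range and the other DSS+DCA libraries under it. The log2 change was -0.86 ± 0.32 (SE, adjusted p = 0.259, and 0.0372 without DSS+DCA replicate 1, limma). Without that library 1246 of the 14611 tested genes passed, 130 higher and 1116 lower, which is the background of each value given without it. Leaving it out keeps DSS+DCA replicates 2 and 4, the libraries with the higher mitochondrial share. No member given with such a value passed when any other single library was left out. Ugt2b34, a steroid-type UGT, measured 61.4, 17.6 and 38.3 FPKM in DSS+DCA, against 55.1, 70.8 and 62.0 FPKM in DSS (adjusted p = 0.373, limma). Here too DSS+DCA replicate 1 lay inside the DSS range. Ugt2b5 (adjusted p = 0.880) and Ugt2b35 (0.609) overlapped between groups, at 6.19 to 16.6 FPKM in DSS+DCA and 7.83 to 13.9 in DSS for Ugt2b5, and at 1.04 to 2.64 in DSS+DCA and 2.103 to 2.84 in DSS for Ugt2b35. Ugt2b36 measured 0.922 ± 0.419 FPKM in DSS+DCA and 0.782 ± 0.406 FPKM in DSS (SD, n = 3 each, adjusted p = 0.850, limma).

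The Ugt1a genes cannot be read singly with confidence. They share a locus on chromosome 1 from 88055388 to 88220002 in which alternative first exons join common later exons. Between 58.7% and 94.5% of the bases of each member's longest coding transcript lie in exons that other members use, lowest for Ugt1a10 and highest for Ugt1a6a. Ugt1a6a, a phenol UGT, measured 6.49, 12.5 and 46.3 FPKM in DSS+DCA, against 31.7, 37.9 and 13.2 FPKM in DSS. Ugt1a7c measured 8.08, 1.61 and 11.3 FPKM in the same DSS+DCA libraries, against 3.43, 5.06 and 23.3 FPKM in the DSS libraries. In DSS replicate 4 Ugt1a7c exceeded Ugt1a6a, the reverse of the other DSS libraries. The pair summed to 14.6, 14.2 and 57.6 FPKM in DSS+DCA and to the narrower 35.1, 42.9 and 36.6 FPKM in DSS. Neither gene passed (adjusted p = 0.674 for Ugt1a6a and 0.833 for Ugt1a7c, limma). Ugt1a2 reached 7.87 FPKM in DSS replicate 1 and is listed at 0 in the other 5 libraries (adjusted p = 0.535, limma). The authors' deposited table gives it a q-value of 1.43e-07. All 7 Ugt1a genes summed to 101.5, 55.3 and 106.8 FPKM in DSS+DCA, against 124, 160.2 and 150.3 FPKM in DSS.

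**Figure D2:**
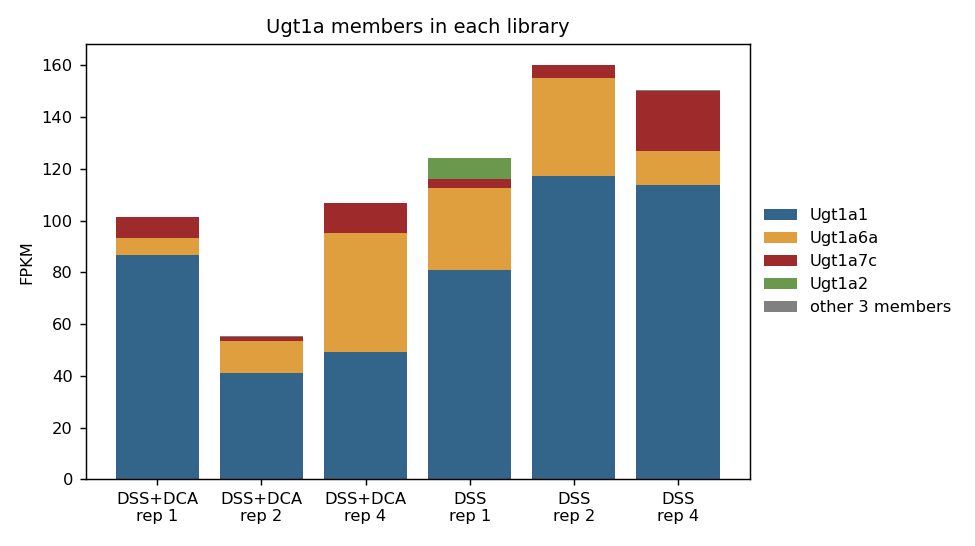
FPKM of the Ugt1a members stacked for each library, DSS+DCA left of DSS. Ugt1a1 makes up 46.0% to 85.5% of the stack in DSS+DCA and 65.3% to 75.7% in DSS. The Ugt1a6a and Ugt1a7c parts trade places between libraries, and Ugt1a2 appears in DSS replicate 1.

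Of the sulfotransferases, 6 of 12 were tested and 0 passed the limma test. At an unadjusted p under 0.05, 2 were lower, where 12.4% of all tested genes were lower. Sult2b1, which sulfates cholesterol and other hydroxysteroids, came nearest. It measured 6.78, 5.91 and 6.25 FPKM in DSS+DCA, against 10.9, 15.8 and 13.01 FPKM in DSS. The groups did not overlap, and the log2 change was -0.95 ± 0.19 (SE, adjusted p = 0.0922, limma). Without DSS+DCA replicate 1 it passed (adjusted p = 0.0386, limma), and without any other single library it did not (0.0887 to 0.352). Sult1c2, of the class that sulfates small phenols, measured 7.22, 4.76 and 7.74 FPKM in DSS+DCA, against 11.2, 9.76 and 11.1 FPKM in DSS (adjusted p = 0.211, limma). These groups did not overlap either.

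The abundant sulfotransferases varied more within DSS+DCA. Sult1a1, the main phenol sulfotransferase, measured 166, 47.8 and 103.5 FPKM in DSS+DCA, against 166, 148 and 158 FPKM in DSS (adjusted p = 0.420, limma). Sult1d1, which sulfates catecholamines in mice, measured 92.0, 31.1 and 86.9 FPKM in DSS+DCA, against 88.6, 101.5 and 95.0 FPKM in DSS (adjusted p = 0.506, limma). For both, DSS+DCA replicate 2 was far under the other libraries and replicate 1 was within or near the DSS range. Sult1b1, which accepts thyroid hormones, measured 31.9 ± 17.4 FPKM in DSS+DCA and 40.3 ± 5.02 FPKM in DSS (SD, n = 3 each, adjusted p = 0.557, limma).

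Sult4a1, an orphan sulfotransferase known from neurons, was highest in DSS+DCA replicates 1 and 4. It measured 6.78, 0.405 and 3.29 FPKM in DSS+DCA, against 0.216, 1.03 and 0.817 FPKM in DSS (log2 change 1.13 ± 0.59 SE, adjusted p = 0.380, limma). The 10 enteric neuron and glia markers, all with fitted values above 0, summed to 105.4, 7.89 and 71.6 FPKM in the same DSS+DCA libraries, against 2.59, 23.7 and 12.8 FPKM in DSS. Prph was the marker at 0, in DSS replicate 1. Sult4a1 had the same order over the 6 libraries as this sum and as the smooth muscle marker sum. The part of neural or muscle tissue in its level was not tested.

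Of the glutathione S-transferases, 24 of 25 were tested and 0 passed the limma test, 9 with an unadjusted p under 0.05, all lower, where 12.4% of all tested genes were lower at that p. The mu class held 5 of these 9. Its 7 genes stand together on chromosome 3 from 107895821 to 108044894 and all 7 had fitted values below 0 (60.5% of all tested genes), with a median of -0.86, which stayed below 0 under each of the 5 other scales tried (-0.90 to -0.16). Gstm1, the most abundant of the class, measured 42.2, 14.1 and 62.3 FPKM in DSS+DCA, against 67.1, 102.3 and 77.6 FPKM in DSS (log2 change -1.25 ± 0.51 SE, adjusted p = 0.291, limma). Gstm6 measured 2.36, 0.853 and 2.09 FPKM in DSS+DCA, against 3.72, 5.66 and 4.19 FPKM in DSS (log2 change -1.03 ± 0.27 SE, adjusted p = 0.160, limma). Both separated the groups. Gstm2 (13.4 ± 3.81 FPKM in DSS+DCA, 24.8 ± 6.005 in DSS, SD, n = 3 each) and Gstm5 (12.8 ± 3.24 in DSS+DCA, 18.4 ± 0.399 in DSS) did so too, and Gstm3 (11.4 ± 6.24 in DSS+DCA, 24.8 ± 8.27 in DSS) overlapped. Gstm4 was level with DSS on average, at 4.53 ± 2.92 FPKM in DSS+DCA and 4.48 ± 1.03 FPKM in DSS (adjusted p = 0.911, limma). Between 0% and 13.8% of the 100-base windows of each mu gene recur in another gene, highest for Gstm3.

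In the pi class, 0 of 3 tested genes passed the limma test. An unadjusted p under 0.05 was held by 0, where 16.7% of all tested genes had one. Gstp1, a broad detoxifier of electrophiles, measured 155.5, 73.1 and 121 FPKM in DSS+DCA, against 102.7, 129 and 129.9 FPKM in DSS (log2 change -0.10 ± 0.30 SE, adjusted p = 0.889, limma). Its highest and lowest values were both in DSS+DCA. Gstp2 overlapped likewise (57.6 ± 25.5 FPKM in DSS+DCA, 74.2 ± 20.9 in DSS, adjusted p = 0.598), but 52.8% of Gstp1 and 63.5% of Gstp2 windows recur in each other or in a pseudogene, so their split is uncertain. Gstp3, with no shared window, measured 6.05 ± 1.75 FPKM in DSS+DCA and 7.60 ± 0.443 FPKM in DSS (adjusted p = 0.4999, limma). The pi class median of -0.32 turned positive with quantile normalization (0.05), protein-coding rescaling (0.08) and the epithelial marker shift (0.38).

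In the theta class, Gstt2 measured 8.00, 5.39 and 6.81 FPKM in DSS+DCA, against 12.5, 11.4 and 13.05 FPKM in DSS. The groups did not overlap, and the log2 change was -0.80 ± 0.19 (SE, adjusted p = 0.127, and 0.0300 without DSS+DCA replicate 1, limma). Its neighbours in the cluster on chromosome 10 overlapped between groups, with Gstt1 at 7.89 ± 3.33 FPKM in DSS+DCA and 11.6 ± 2.16 in DSS, Gstt3 at 6.73 ± 3.14 in DSS+DCA and 7.36 ± 0.195 in DSS (SD, n = 3 each). Gstt4 was listed at 0, 1.36 and 0.922 FPKM in DSS+DCA, against 0.0924, 0.147 and 0.608 FPKM in DSS (adjusted p = 0.584, limma).

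Among alpha class genes, Gsta1 measured 39.7, 47.2 and 24.3 FPKM in DSS+DCA, against 48.7, 57.6 and 59.0 FPKM in DSS (adjusted p = 0.318, limma). The groups did not overlap, although 81.8% of its windows recur in other genes, Gsta2 among them. Gsta4, which conjugates the lipid peroxidation product 4-hydroxynonenal, measured 20.0 ± 4.65 FPKM in DSS+DCA and 24.2 ± 1.10 FPKM in DSS (SD, n = 3 each, adjusted p = 0.514, limma). Gsta2 and Gsta3 stayed at or under 1.08 FPKM in all libraries. Of the other soluble classes, Gsto1, a glutathione-dependent thiol transferase, measured 184, 91.1 and 91.8 FPKM in DSS+DCA, against 144, 166 and 154 FPKM in DSS (adjusted p = 0.518, and 0.0277 without DSS+DCA replicate 1, limma). Its DSS+DCA replicate 1 was the highest of the 6 libraries. Gstk1, an enzyme of mitochondria and peroxisomes, measured 25.04 ± 12.1 FPKM in DSS+DCA and 38.0 ± 3.79 FPKM in DSS (adjusted p = 0.387, limma). Gstz1, which acts in tyrosine breakdown, was close between groups at 4.72 ± 0.581 FPKM in DSS+DCA and 4.82 ± 0.459 FPKM in DSS (adjusted p = 0.949, limma).

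The 3 microsomal transferases all had an unadjusted p under 0.05 and none passed after adjustment. All 3 were lower, where 12.4% of all tested genes were lower at that p. Mgst3, a membrane protein with transferase and peroxidase activity, was the most abundant conjugating enzyme in these libraries. It measured 348.98, 192 and 448 FPKM in DSS+DCA, against 659.8, 708 and 684 FPKM in DSS (log2 change -1.14 ± 0.33 SE, adjusted p = 0.179, limma). Each DSS+DCA library was under each DSS library. Mgst2, which can form leukotriene C4, measured 66.96, 49.9 and 71.5 FPKM in DSS+DCA, against 94.1, 92.3 and 91.3 FPKM in DSS (adjusted p = 0.245, limma), again without overlap. Mgst1, the detoxifying form, measured 55.8, 26.6 and 27.6 FPKM in DSS+DCA, against 54.2, 64.7 and 60.2 FPKM in DSS (adjusted p = 0.282, and 0.0185 without DSS+DCA replicate 1, limma). There DSS+DCA replicate 1 lay within the DSS range. None of their 100-base windows recur in another gene.

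Besides Nat8f4 and Nat8f1, 3 further NAT genes were tested and did not pass in limma. Nat2, the arylamine N-acetyltransferase that corresponds to human NAT1, measured 19.6, 23.2 and 14.9 FPKM in DSS+DCA, against 22.5, 19.8 and 20.7 FPKM in DSS (log2 change -0.14 ± 0.21 SE, adjusted p = 0.761). The DSS values lay inside the DSS+DCA range. Nat10, an RNA cytidine acetyltransferase, measured 2.54 ± 0.358 FPKM in DSS+DCA and 2.16 ± 0.226 FPKM in DSS (SD, n = 3 each, adjusted p = 0.630). Nat14 measured 3.08, 0.251 and 1.52 FPKM in DSS+DCA, against 0.475, 0.372 and 1.79 FPKM in DSS (adjusted p = 0.701). Nat8l, which makes N-acetylaspartate and is known from neurons, was under the filter with 0.801, 0.149 and 0.264 FPKM in DSS+DCA and 0.0179, 0.0692 and 0.0714 FPKM in DSS. Every DSS+DCA value of Nat8l was above every DSS value, and its highest values were in replicates 1 and 4, the DSS+DCA libraries with the higher neuron, glia and smooth muscle marker sums, whose part was not tested.

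**Figure D3:**
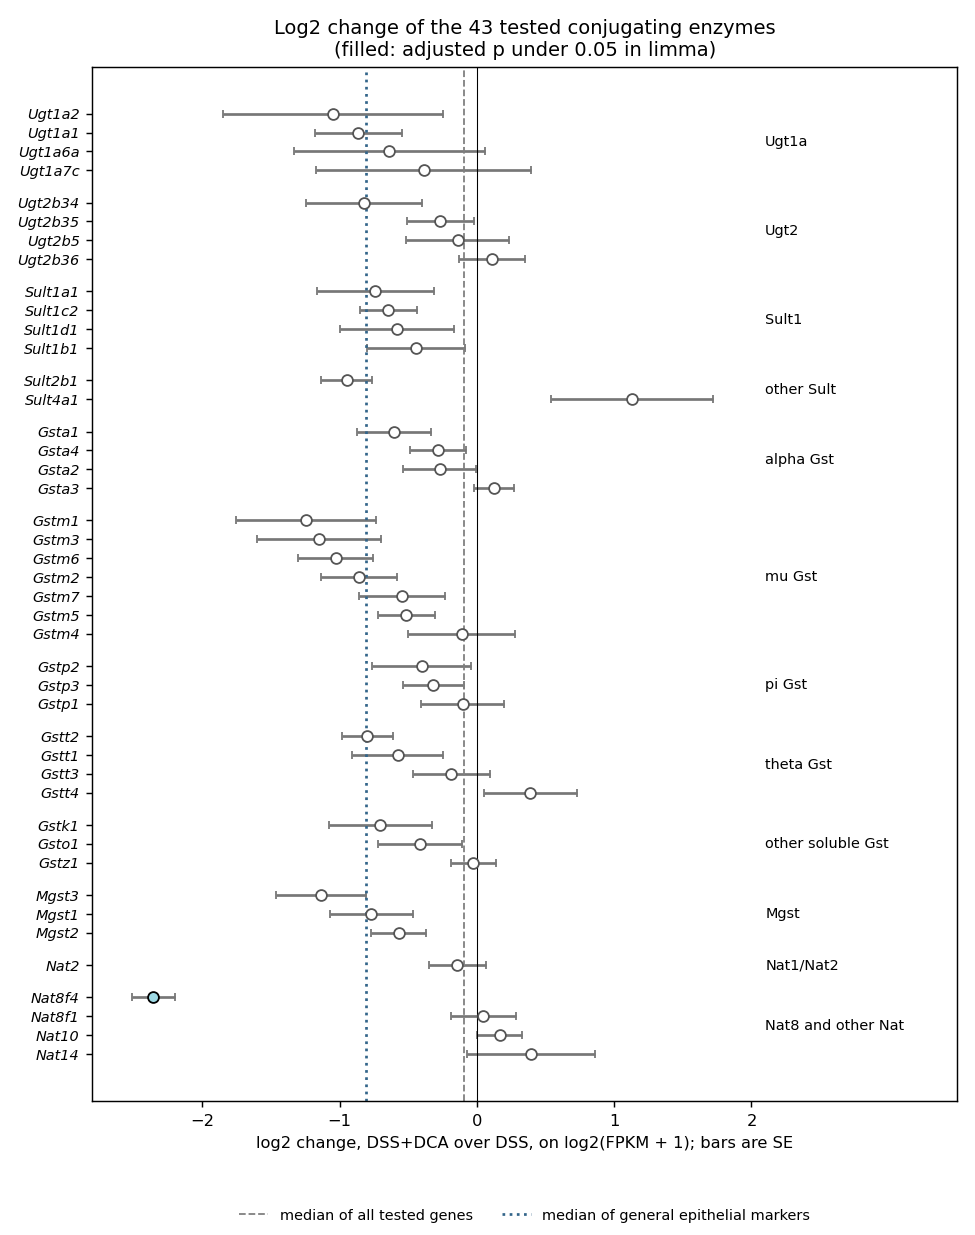
Log2 change (DSS+DCA over DSS, bars are SE) of the 43 tested members by family. The filled point, Nat8f4, is the member past an adjusted p under 0.05. The dashed line is the median of all tested genes (-0.09) and the dotted line that of the general epithelial markers (-0.80).

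As a whole, the 43 tested members had a median log2 change of -0.51, beside -0.09 for all tested genes and -0.80 for 17 general epithelial markers, and this median turned to 0.18 with the epithelial marker shift. That shift moved the median of all genes to 0.60, and the protein-coding rescaling moved it to 0.23. Minus the all-gene median, the members' median was -0.42 as deposited, -0.45 with a pseudocount of 0.1, -0.39 with TMM-style scaling, -0.36 after the protein-coding rescaling and -0.23 with quantile normalization. The epithelial shift moves all genes alike and cannot change this gap. Of the 43, 10 lay below the epithelial median and 33 above it. The sign of the log2 change was negative on all 6 scales for 14 members, positive on all 6 for 5, and mixed for 24. The same count over all genes was not made. Fitted values were below 0 for 60.5% of all tested genes as deposited, 25.1% after the protein-coding rescaling and 8.14% with the epithelial marker shift. Members below 0 on the same scales numbered 36, 25 and 14 of 43. Groups did not overlap for 11 members, all lower in DSS+DCA, where 17.8% of all tested genes separated as lower and 5.8% as higher.

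**Figure D4:**
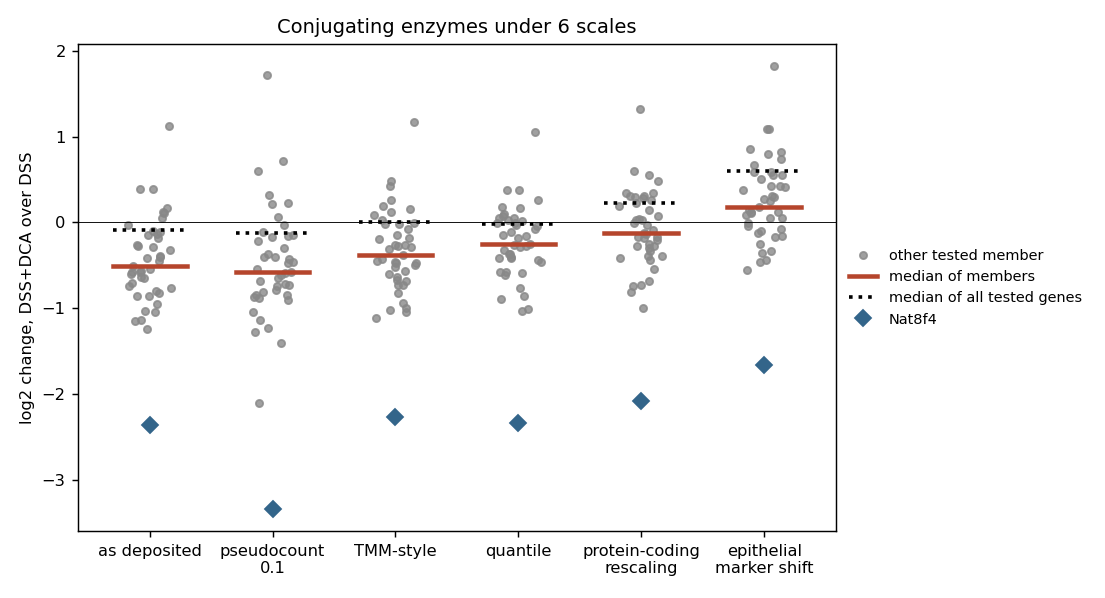
Log2 change (DSS+DCA over DSS) of each tested member on 6 scales, with the members' median (red) and the median of all tested genes (dotted). The members' median lies below that of all tested genes on each scale, with the smallest gap under quantile normalization (-0.23), and Nat8f4 (diamonds) stays the lowest member on each, between -3.35 and -1.66.

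The low values were not spread evenly over the DSS+DCA libraries. In replicate 1, 16 of 43 members lay below all DSS libraries and 13 above them, where 26.3% of all tested genes were below and 47.3% above. In replicate 2, 34 were below and 4 above (53.6% and 16.2% of all genes), and in replicate 4, 28 were below and 3 above (53.4% and 20.7% of all genes). Replicates 2 and 4 were the libraries with the higher mitochondrial share. The 65 members summed to 1679.7, 838 and 1437 FPKM in DSS+DCA, against 1934, 2211 and 2106 FPKM in DSS. As a share of protein-coding FPKM outside the mitochondrial genome, this was 0.743%, 0.593% and 0.912% in DSS+DCA, against 0.846%, 0.930% and 0.893% in DSS, and these ranges overlap. The epithelial markers, 15 of 17 with fitted values below 0, summed to 4378 to 7627 FPKM in DSS+DCA and 9097 to 10602 FPKM in DSS. Mature colonocyte markers had a median log2 change of -0.99, with 12 of 20 tested genes lower without overlap and 1 called lower, and summed to 10997, 4809 and 8546 FPKM in DSS+DCA, against 10679, 14141 and 12235 FPKM in DSS. Goblet cell markers had a median of -1.27, with 10 of 16 lower without overlap and 2 called lower, and summed to 1637, 1144 and 3319 FPKM in DSS+DCA, against 7367, 5758 and 6815 FPKM in DSS. Of all tested genes, 17.8% were lower without overlap, 0.431% were called lower and 60.5% had fitted values below 0. The part of epithelial, colonocyte or goblet cell content or of the mitochondrial share in the members' lower values was not tested.

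**Figure D5:**
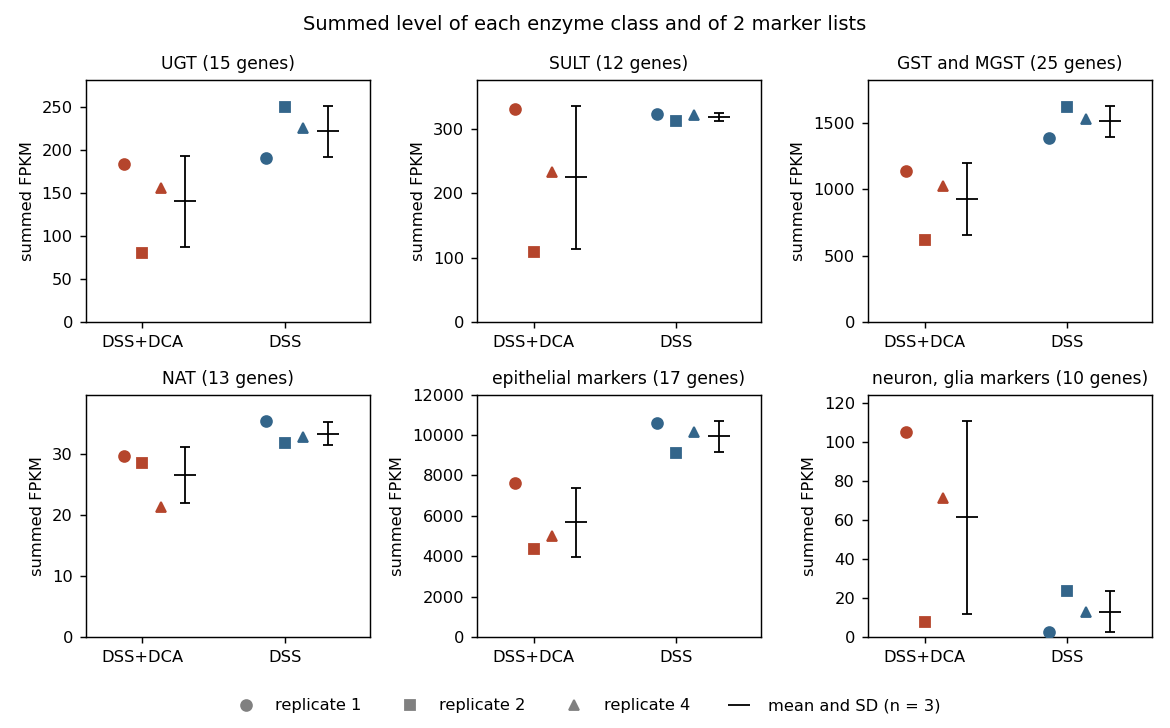
Summed FPKM by library for the 4 enzyme classes and for 2 marker lists, DSS+DCA left of DSS, with mean and SD over 3 libraries. The GST and MGST sum lies at 619 to 1135 FPKM in DSS+DCA and 1386 to 1619 FPKM in DSS. The SULT sum overlaps between groups through DSS+DCA replicate 1 (331 FPKM).

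The gene lists drawn up for cofactor supply showed 0 calls in limma over all genes tested. Of all tested genes, 16.7% had an unadjusted p under 0.05, 12.4% lower and 4.26% higher, and the counts of these lists stand beside that share. The list for UDP-glucuronic acid supply also holds genes not specific to it, such as Slc35b1 and Canx. In that list, 1 of 7 tested genes had an unadjusted p under 0.05 (list median -0.12). This was Slc35b1, a transporter of the endoplasmic reticulum, at 13.5 ± 3.08 FPKM in DSS+DCA and 25.1 ± 3.69 FPKM in DSS (SD, n = 3 each, adjusted p = 0.150). Ugdh, which makes UDP-glucuronic acid, measured 47.8 ± 23.9 FPKM in DSS+DCA and 42.96 ± 4.56 FPKM in DSS (adjusted p = 0.991). In sulfate donor supply it was 1 of 7 (median -0.39), the sulfate transporter Slc26a2 at 13.9 ± 5.95 FPKM in DSS+DCA and 23.9 ± 0.116 FPKM in DSS (adjusted p = 0.277). In glutathione synthesis and turnover it was 7 of 20, 6 lower and 1 higher (median -0.28), with the glutathione-degrading enzyme Chac2 nearest at 5.87 ± 0.825 FPKM in DSS+DCA and 12.35 ± 0.316 FPKM in DSS (adjusted p = 0.0689). Dpep1, which cleaves the dipeptide of glutathione conjugates, measured 60.2 ± 34.2 FPKM in DSS+DCA and 140.5 ± 2.35 FPKM in DSS (adjusted p = 0.164). Gclc, the catalytic subunit of the rate-limiting step of glutathione synthesis, measured 15.4 ± 3.39 FPKM in DSS+DCA and 12.3 ± 0.901 FPKM in DSS (adjusted p = 0.517).

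Exporters, deconjugating enzymes and regulators also gave 0 calls in limma, with 3 of 12, 0 of 14 and 3 of 23 tested genes at an unadjusted p under 0.05, beside 16.7% of all tested genes, and medians of -0.19, -0.19 and -0.26. Slc51b, a subunit of the basolateral bile acid and steroid exporter, measured 87.3 ± 29.3 FPKM in DSS+DCA and 204.7 ± 5.98 FPKM in DSS (SD, n = 3 each, adjusted p = 0.102). Its partner Slc51a measured 78.2, 12.0 and 27.5 FPKM in DSS+DCA, against 8.46, 12.7 and 11.7 FPKM in DSS (adjusted p = 0.310). Abcc3, a basolateral exporter of glucuronides, measured 16.8 ± 4.40 FPKM in DSS+DCA and 33.5 ± 1.35 FPKM in DSS (adjusted p = 0.124). Among regulators, the pioneer factor Foxa2 came nearest at 2.37 ± 0.416 FPKM in DSS+DCA and 6.245 ± 1.36 FPKM in DSS (adjusted p = 0.0778). Hnf4a, a nuclear factor of the enterocyte programme, measured 88.3 ± 11.8 FPKM in DSS+DCA and 140.4 ± 5.75 FPKM in DSS (adjusted p = 0.170). Nr1i2, the xenobiotic receptor PXR, was close between groups at 45.2 ± 0.768 FPKM in DSS+DCA and 49.2 ± 1.44 FPKM in DSS (adjusted p = 0.737), and so was Nfe2l2, which encodes NRF2, on average (35.4 ± 12.4 FPKM in DSS+DCA and 31.8 ± 0.459 FPKM in DSS, adjusted p = 0.873).

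Target genes of NRF2 outside the conjugating enzymes gave 0 calls, 4 of 22 tested genes with an unadjusted p under 0.05, all lower (median -0.21), beside 12.4% of all tested genes. Txn1, the cytosolic thioredoxin, measured 417 ± 177 FPKM in DSS+DCA and 871 ± 127.95 FPKM in DSS (SD, n = 3 each, adjusted p = 0.179), and the quinone reductase Nqo1 14.8 ± 5.62 FPKM in DSS+DCA and 16.3 ± 2.51 FPKM in DSS (adjusted p = 0.777). Of the aryl hydrocarbon receptor targets, Nqo1 and Tiparp were tested and neither passed, with 0 at an unadjusted p under 0.05. Cyp1a1, its classical target, was at most 0.0647 FPKM in any library.

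The authors' deposited table marks 6 of the 65 members as significant, 1 up and 5 down, where it marks 3.17% of all genes. Over all 36977 genes it marks 1174, of which 808 are up and 366 down. The 6 members are Nat8f4 (q-value 5.72e-33), Ugt1a2 (1.43e-07), Nat8l (0.00364), Sult2b1 (0.00917), Gstm6 (0.0362) and Sult6b1 (0.0483), all from the authors' deposited table. Of these, Nat8f4 was also called in limma. Sult2b1, Gstm6 and Ugt1a2 did not pass there, and Nat8l and Sult6b1 were under the filter on low values, Sult6b1 with 0.324, 0.216 and 0.121 FPKM in DSS+DCA and 0.603, 0.782 and 0.804 FPKM in DSS. The authors' mark does not rest on their q-value alone. Gstt2 is unmarked at a q-value of 0.0280 and a log2 fold of -0.873 in the authors' deposited table. The limma call rests on the adjusted p alone, so the 2 sets of calls differ in threshold.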

How the data were processed

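Colonic RNA-seq of 6 libraries, 3 of DSS+DCA and 3 of DSS, was deposited by the authors as 1 table with an FPKM value for each gene in each library (per the file headers), with no stated scaling between libraries. StringTie 2.1.6, HISAT2 2.2.1, cutadapt 1.9, edgeR and DESeq2 are listed with no roles, per the submitters' processing notes. No build and no strand setting is given in the sources used here. Per the file headers, the authors also deposited a fold between the groups, its log2, a p-value and a q-value for each gene. These were used only where named. Depth is unknown: at most 45.9% of low values, scaled by transcript length, lay within 0.05 of a whole fragment, so no count test was run.

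Values were taken as log2(FPKM + 1). The 14611 genes averaging 0.5 FPKM or more were fitted with limma 3.58.1 in R 4.3.3 (lmFit, eBayes with trend, two-sided, no covariate), with calls at a Benjamini-Hochberg adjusted p under 0.05 over all of them. Log2 changes on this scale understate those of low genes. Folds are ratios of mean FPKM. The script was tested on simulated data. Members and lists were chosen with earlier results of these data known. Named were called members, the 3 of smallest p and 3 of highest mean in each family, up to 4 genes per pathway list, and others as examples chosen after their values were seen (Ugdh, Gclc, Slc51a, Nr1i2, Nfe2l2, Cyp1a1, Nat8l, Sult6b1). The tested members Gstm4, Gstm5 and Gsta3 were also named outside these rules. Alternatives were the 17 settings of the closing section. Window sharing used GENCODE M21 transcripts of GRCm38, and promoters came from RefSeq (GRCm38.p6).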

Additional observations from a re-analysis of the deposited data

How the results depend on the processing

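The count of called conjugating enzymes was 1 with a pseudocount of 0.1, with no filter, with a mean of at least 2 FPKM, with TMM-style scaling, quantile normalization and protein-coding rescaling, and with a minimum fold of 2. It was 3 with the epithelial marker shift (2 higher, 1 lower), 23 with array weights (1 higher, 22 lower), which gave DSS replicate 4 a weight of 8.08 and DSS+DCA replicate 1 a weight of 0.152, and 2 at an adjusted p under 0.1. Leaving out each library gave 0 to 6, with 0 without DSS replicate 1 or 4 and 6 lower without DSS+DCA replicate 1, where 1246 of all genes were called (130 higher, 1116 lower). Over all genes the count of 82 (19 higher, 63 lower) was 2 with no filter, 132 with TMM-style scaling (32 higher, 100 lower), 124 with protein-coding rescaling (79 higher, 45 lower), 4189 with the epithelial marker shift (4101 higher, 88 lower), 6227 with array weights, 230 at an adjusted p under 0.1 and 0 to 1246 without single libraries, highest without DSS+DCA replicate 1. Without DSS replicate 1 and without DSS replicate 4, where limma called 0 genes, 1503 and 1412 had an unadjusted p under 0.05. The members' median log2 change of -0.51 was -0.14 with no filter, which adds 22 low members, -0.25 with quantile normalization, -0.13 with protein-coding rescaling and 0.18 with the epithelial marker shift. The cause of the other moves was not tested.

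With the replicate number as a block, limma called 1 gene over all tested and 0 conjugating enzymes (Nat8f4 adjusted p = 0.0853). Deviations from the group means correlated between same-numbered libraries at -0.14, -0.17 and 0.02 for numbers 1, 2 and 4. No library correlated best with its own number. With 3 libraries per group, and DSS replicate 4 near the mean of the other DSS libraries, this cannot decide whether same-numbered libraries were paired.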
